A study of Mus musculus with 8 samples.

Results

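The interleukin-6 (IL-6) family genes followed here are 10 genes of the deposited table of 17353: the ligands Il6, Il11, Lif and Osm, the receptor genes Osmr, Il6st, Il6ra and Il11ra1, the transcription factor gene Stat3 and its feedback inhibitor Socs3. They were picked by name as the ligands, receptors and STAT3 feedback genes of this pathway, not by a cut on their values. Earlier results of these data were known when they were picked. All 10 were in the table, and all 10 passed the filter on low counts that left 13381 genes for testing.

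Ligands of this family bind receptor complexes that share 1 signalling chain, gp130, the product of Il6st. Il6ra and Il11ra1 encode the chains that bind IL-6 and IL-11, and Osmr encodes the partner of gp130 in the oncostatin M receptor. The complexes activate JAK kinases, which phosphorylate STAT3, and STAT3 raises transcription of Socs3, whose product binds gp130 and the JAKs and shuts signalling down. In the colon, IL-6 and IL-11 are known for epithelial survival and regeneration, and oncostatin M made by leukocytes for its action on stromal cells in inflammatory bowel disease. None of the values below measures phosphorylated STAT3 or any protein.

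Polyadenylated RNA of colonic mucosa came from 8 male wild-type C57BL/6J mice on day 7, with 2 animals in each of 4 groups. Kuiyangling mice drank 3% dextran sulfate sodium (DSS), which injures the colonic epithelium, and had enemas of Kuiyangling at 10 g/kg. Mesalazine mice drank 3% DSS and had enemas of mesalazine, an aminosalicylate used in ulcerative colitis, at 50 mg/kg. DSS model mice drank 3% DSS with saline enemas, control mice had saline enemas and no DSS, and every enema was 0.2 ml. No label names a batch, and DSS colitis is a chemical injury of male mice of 1 strain.

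Library totals ran from 15560946 to 17843715 counts, and 3 counts, the limit that a count of 0 allows, came to 0.149 to 0.212 CPM (the unit used for values per library below, counts scaled to a common library total after TMM scaling). All 10 epithelial markers were present in every library, with sums from 29620 to 40166 CPM. Mesalazine 1 and control 2 resembled the other libraries least (mean Spearman correlations of 0.940 and 0.945, against 0.963 to 0.974 for the other 6). The log2 levels relative to the mean of all libraries also went with gene length to different degrees, with a Spearman correlation from -0.534 in mesalazine 1 and -0.433 in DSS model 2 to 0.385 in Kuiyangling 2 and 0.444 in control 1. In a bulk sample, more cells that express a gene and more of its RNA per cell cannot be told apart.

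The intracellular genes stood highest and Il6ra lowest. In the authors' FPKM, which divides by gene length, the median over the 8 libraries was 28.9 for Stat3, 15.1 for Socs3, 5.46 for Il11ra1, 3.54 for Il6st, 1.0 for Il11, 0.753 for Lif, 0.688 for Osmr, 0.414 for Il6, 0.196 for Osm and 0.1003 for Il6ra. Between neighbours in this order, the ranges over libraries overlapped for every pair except Il11ra1 (4.79 to 7.17 FPKM) and Il6st (2.31 to 4.50 FPKM). Il6, Osm and Il6ra had 70, 79 and 69 counts in all 8 libraries together, so that single libraries held 0 to 36 counts of any of these genes. Summed over the 4 ligands, FPKM was 2.44 and 2.58 in Kuiyangling mice, 2.66 and 2.21 in mesalazine mice, 3.46 and 7.83 in the DSS model and 1.02 and 2.05 in controls. The sum over the 4 receptor genes stayed between 9.31 and 12.7 FPKM in all libraries, with the highest in control 2.

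**Figure D1:**
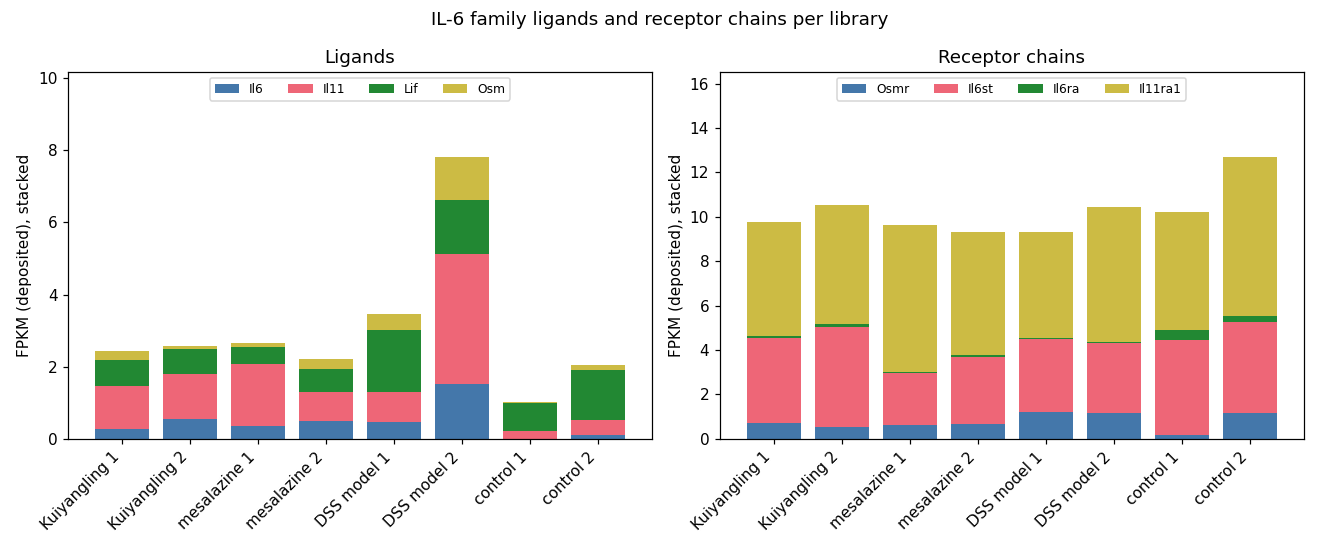
Deposited FPKM of the 4 ligand genes (left) and the 4 receptor genes (right), stacked in 1 bar per library, on separate linear axes. The ligand bar was highest in DSS model 2, at 7.83, and the receptor bars lay between 9.31 and 12.7, most of it Il11ra1 and Il6st.

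DSS model mice had more Il6, Il11, Osm and Socs3 RNA than controls and less Il6ra, while Il6st and Il11ra1 were close to control levels. None of these differences passed the test: edgeR's quasi-likelihood test with Benjamini-Hochberg adjustment over 13381 genes (threshold 0.05) called 0 of the 10 genes, where it called 0.247% of all genes. At an unadjusted p under 0.05 there were 5 of 10 (Il6, Il11, Osm, Il6ra and Socs3), against 14.8% of all genes. DESeq2 called 2 (Il11 and Socs3), of 435 genes in all. Limma called 1 (Socs3) on log2(FPKM + 0.1), of 33 in all, and 0 on log2(FPKM + 1), of 19 in all. The libraries of the DSS model and control groups did not overlap for 9 of the 10 genes, 7 higher and 2 lower in the DSS model, where 53.4% of all genes did not overlap (27.1% higher and 26.3% lower). Such counts, here and below, rest on TMM-scaled CPM. In deposited FPKM, Osmr (1.14 in DSS model 2 and 1.18 in control 2) and Stat3 (30.3 and 31.4) overlapped. The median log2 change was 0.82 over the 10 genes and -0.04 over all genes tested.

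Both treated groups had lower Lif, Osm, Osmr, Socs3 and Il6 RNA than the DSS model on average. The same test called 0 of 10 genes for Kuiyangling against the DSS model, and 0% of all genes. At an unadjusted p under 0.05 there were 3 (Lif, Osm and Socs3), against 3.56% of all genes, and DESeq2 and limma on either FPKM scale called 0. Here 7 genes did not overlap, 2 higher and 5 lower with Kuiyangling, where 43% of all genes did not overlap (21.9% higher and 21.1% lower), and the median log2 change was -1.01 over the 10 genes and 0.00 over all genes. For mesalazine against the DSS model, 0 of 10 genes and 0% of all genes were called, 4 (Lif, Osm, Socs3 and Stat3) had an unadjusted p under 0.05, against 5.49% of all genes, and DESeq2 and limma called 0. All 7 genes that did not overlap were lower with mesalazine, where 27.7% of all genes did not overlap (14% higher and 13.8% lower), and the median log2 change was -0.77, with 0.04 over all genes. Il6 was 1 of the 7, but mesalazine 2 and DSS model 1 each had 9 counts of it and overlapped in FPKM (0.480 and 0.466). The comparisons with control and with both treatments share the DSS model libraries, so they are not independent of each other.

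**Figure D2:**
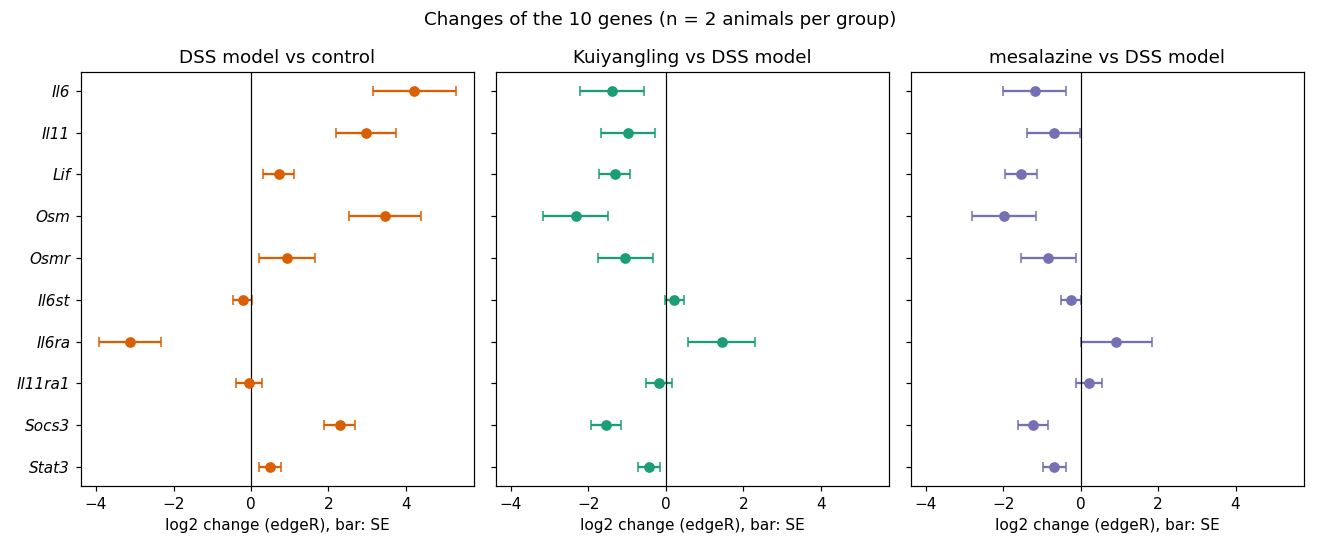
Log2 change of the 10 genes with its SE (bars) from the edgeR fit of all 8 libraries, for the DSS model against control, Kuiyangling against the DSS model and mesalazine against the DSS model (2 animals per group). In the DSS model against control Il6 is at 4.22 and Il6ra at -3.13, and Socs3 at 2.29 has a smaller SE (0.40) than these low genes.

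Il6 encodes the cytokine that gives the family its name. It had 5 and 11 counts in Kuiyangling mice (0.309 and 0.571 CPM), 7 and 9 in mesalazine mice (0.495 and 0.525 CPM), 9 and 27 in the DSS model (0.566 and 1.79 CPM), and 0 and 2 in controls (0 and 0.123 CPM). Every library of the DSS-drinking groups was above both controls, and DSS model 1 lay within the range of the treated mice. With 36 counts in the DSS model and 2 in controls, the log2 change was 4.22 (SE 1.08; adjusted p = 0.148). Both control counts came from control 2, and the estimate was 3.17 without control 1 and 3.17 without DSS model 2. Without control 2 the fit gave 7.31, which against 0 counts is no bound, and limma on log2(FPKM + 1) gave 0.87. Against the same 2 control counts, Kuiyangling gave a ratio of 8.22 (95% counting interval 1.93 to 73.7; log2 change 2.83, adjusted p = 0.425) and mesalazine 9.31 (2.19 to 83.5; 3.03, 0.189). These intervals cover counting error only. Against the DSS model the log2 changes were -1.39 with Kuiyangling (adjusted p = 0.996) and -1.19 with mesalazine (0.985).

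Il11 encodes a cytokine made mainly by stromal cells in the injured gut. It had 3.22 and 3.12 CPM in Kuiyangling mice, 5.59 and 2.16 CPM in mesalazine mice, 2.39 and 10.1 CPM in the DSS model and 0.495 and 1.11 CPM in controls. Each DSS-drinking library exceeded both controls, and DSS model 2 alone was above 6 CPM. The log2 change was 2.97 for the DSS model against control (SE 0.77; adjusted p = 0.151), 2.28 for mesalazine against control (0.155) and 1.99 for Kuiyangling against control (0.392). Against the DSS model, Il11 was at -0.98 with Kuiyangling (0.996) and -0.70 with mesalazine (0.9999). Both signs turned without DSS model 2, to 0.40 and 0.69. The 10 fibroblast markers summed to 249 and 196 CPM in Kuiyangling mice, 198 and 119 CPM in mesalazine mice, 105 and 168 CPM in the DSS model and 58.1 and 52.5 CPM in controls, with none at 0, and their part in the Il11 values was not tested.

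Osm encodes oncostatin M, which in the gut comes mainly from myeloid cells. It had 8 and 3 counts in Kuiyangling mice (0.495 and 0.156 CPM), 4 and 9 in mesalazine mice (0.283 and 0.525 CPM), 14 and 36 in the DSS model (0.881 and 2.39 CPM) and 1 and 4 in controls (0.0495 and 0.247 CPM). Both DSS model libraries were above all 6 others, and Kuiyangling mice overlapped the controls. Mesalazine mice lay just above the controls in CPM, but mesalazine 1 and control 2 each had 4 counts. In FPKM mesalazine 1 (0.124) was below control 2 (0.131). Its log2 change was 3.46 for the DSS model against control (SE 0.94; adjusted p = 0.165; 2.58 to 4.85 with single libraries left out), -2.33 for Kuiyangling against the DSS model (0.996) and -1.97 for mesalazine against the DSS model (0.845). S100a8, a calcium-binding protein gene of neutrophils, was at 2.79 and 2.23 CPM in Kuiyangling mice, 9.27 and 3.56 CPM in mesalazine mice, 9.62 and 18.4 CPM in the DSS model and 0 and 0.0617 CPM in controls. The 10 neutrophil markers summed to 211 and 136 CPM with Kuiyangling, 874 and 124 CPM with mesalazine, 168 and 219 CPM in the DSS model and 10.95 and 139 CPM in controls, and Ly6g made up most of each sum, with 137 CPM in control 2. In each control 6 of the 10 were at 0, Retnlg, Cxcr2 and S100a9 among them. The 10 monocyte and macrophage markers summed to 88.2 and 82.1 CPM with Kuiyangling, 153 and 69.8 CPM with mesalazine, 134 and 117 CPM in the DSS model and 71.3 and 99.7 CPM in controls, with none at 0. The part of either cell type in the Osm values was not tested.

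Lif encodes leukemia inhibitory factor, which signals through gp130 and LIFR. It had 3.90 and 3.53 CPM in Kuiyangling mice, 3.11 and 3.27 CPM in mesalazine mice, 10.1 and 8.49 CPM in the DSS model and 3.82 and 7.58 CPM in controls. Both DSS model libraries were above all others, and control 2 was close below them. The log2 change was -1.32 for Kuiyangling against the DSS model (SE 0.40; adjusted p = 0.996), -1.54 for mesalazine against the DSS model (SE 0.41; 0.523) and 0.71 for the DSS model against control (0.402). Both mesalazine libraries also lay below both controls (-0.83; 0.289). Lif and Osm are next to each other among coding genes on mouse chromosome 11 (RefSeq, GRCm38.p6), as are Osmr and Lifr on chromosome 15.

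**Figure D3:**
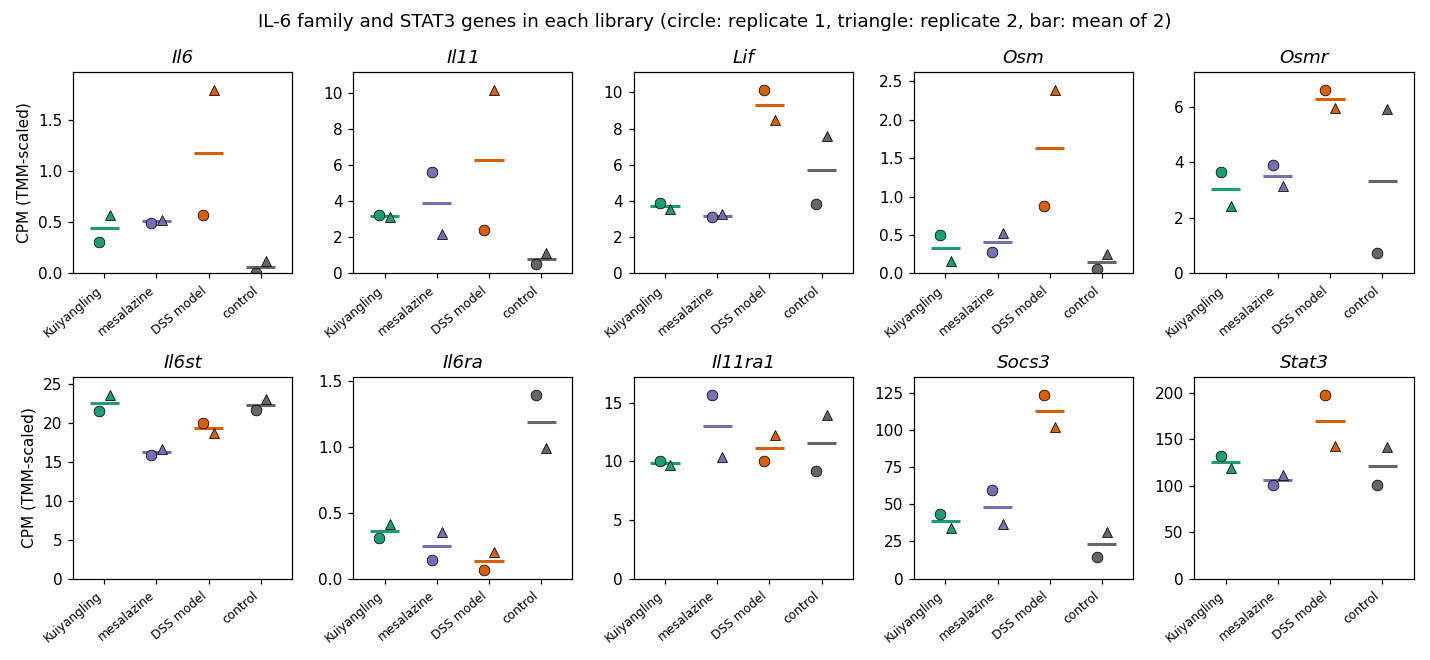
CPM of the 10 genes in each library by group (circle: replicate 1, triangle: replicate 2, bar: mean of 2 animals). Socs3 lies at 123 and 102 CPM in the DSS model and at or below 59.5 CPM in all other libraries, and Il6ra is above 0.9 CPM in controls alone.

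Promoter sequence is shown for the ligands that stood highest in the DSS model, because factors of inflammatory signalling are known to bind such sites. RefSeq promoter entries (250 bases before to 50 after the start; GRCm38.p6) were found for 9 of the 10 genes, Osm being the one without. Capitals mark matches, on either strand, to AP-1 (TGANTCA, in 7.81% of 32851 promoters), C/EBP (TTGCNNAA, in 10.8%) and NF-kB (GGGA and TTCC with 2 free bases between them, in 1.47%). None of these motifs overlapped in the windows shown. A match describes letters and is no evidence that a factor binds.
Il6, chr5:30012864-30013113, plus strand: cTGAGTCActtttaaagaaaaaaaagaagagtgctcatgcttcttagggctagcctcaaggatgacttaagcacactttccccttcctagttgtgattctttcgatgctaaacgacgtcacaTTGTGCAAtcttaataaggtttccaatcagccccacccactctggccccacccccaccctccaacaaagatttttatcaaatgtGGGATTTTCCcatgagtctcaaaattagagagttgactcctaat
Il11, chr7:4778172-4778271, minus strand: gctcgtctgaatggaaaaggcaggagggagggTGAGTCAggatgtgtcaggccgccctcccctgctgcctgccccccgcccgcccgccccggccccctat
Lif, chr11:4257318-4257417, plus strand: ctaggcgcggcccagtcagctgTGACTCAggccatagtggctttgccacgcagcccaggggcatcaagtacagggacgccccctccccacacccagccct
Il6 held 1 match to each of the 3 motifs, 249 (AP-1), 128 (C/EBP) and 44 (NF-kB) bases before its start. Il11 and Lif held an AP-1 match 98 and 228 bases before theirs, and Osmr one 4 bases after its start. Il11 had 2 promoter entries, and only the entry shown held this match.

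Il6ra, the IL-6 binding chain, was the receptor gene with the widest gap between groups. It had 5 and 8 counts in Kuiyangling mice (0.309 and 0.415 CPM), 2 and 6 in mesalazine mice (0.142 and 0.350 CPM), 1 and 3 in the DSS model (0.0629 and 0.199 CPM), and 28 and 16 in controls (1.39 and 0.987 CPM). Both controls were above all 6 DSS-drinking libraries, with a log2 change of -3.13 for the DSS model against control (SE 0.80; adjusted p = 0.149), -2.21 for mesalazine against control (0.149) and -1.69 for Kuiyangling against control (0.426). Against the DSS model Il6ra was at 1.44 with Kuiyangling (0.996) and 0.92 with mesalazine (0.9999). Hepatocytes and leukocytes are known as main sources of Il6ra. Fgg and Fgb, fibrinogen chains of hepatocytes, had 75 and 54 counts in control 1, beside 28 of Il6ra, and 0 in the 7 other libraries, among them control 2 with 16 of Il6ra. The sum of 6 T cell markers ran from 13.3 to 25.4 CPM in the DSS-drinking mice, against 15.4 CPM in control 1 and 41.8 CPM in control 2, and the part of either cell type in Il6ra was not tested.

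Osmr, the oncostatin M receptor chain of stromal and epithelial cells, had 3.65 and 2.44 CPM in Kuiyangling mice, 3.89 and 3.15 CPM in mesalazine mice, 6.60 and 5.97 CPM in the DSS model and 0.743 and 5.92 CPM in controls. The 2 controls differed more than the group means did, which ran from 3.05 CPM with Kuiyangling to 6.29 CPM in the DSS model. In CPM control 2 was just below the DSS model, while in FPKM (1.18) it lay between DSS model 1 (1.22) and DSS model 2 (1.14). Control 1 was the lowest of all libraries. The log2 change was 0.93 for the DSS model against control (SE 0.71; adjusted p = 0.524), 3.07 without control 2 and 0.08 without control 1. Treated mice were below the DSS model without overlap, at -1.05 with Kuiyangling (0.996) and -0.84 with mesalazine (0.9999).

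Il6st, the shared chain gp130, had 21.5 and 23.5 CPM in Kuiyangling mice, 15.9 and 16.6 CPM in mesalazine mice, 19.9 and 18.6 CPM in the DSS model and 21.6 and 23.0 CPM in controls. The mesalazine libraries were below all 6 others and the DSS model lay between, with log2 changes of -0.21 for the DSS model against control (SE 0.25; adjusted p = 0.684), -0.46 for mesalazine against control (0.329) and 0.47 for Kuiyangling against mesalazine (0.999). Il6st has the longest gene length behind the FPKM values of these 10 genes, at 5708 bases, and mesalazine 1 was the library whose levels went down most with length. Its level in mesalazine 2, where the correlation with length was 0.284, was 16.6 CPM, and the part of length was not tested. Il11ra1, the IL-11 binding chain, ran from 9.22 to 15.6 CPM with overlapping groups, and was at -0.05 for the DSS model against control (SE 0.34; adjusted p = 0.943). Counts of Il11ra1 are uncertain, since RefSeq lists the near-copies Il11ra2 and Gm13305, which the table does not hold, and Ccl27a overlaps it.

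Socs3, the feedback inhibitor, had the lowest adjusted p of the 10 genes in the DSS model against control. It had 43.5 and 34.1 CPM in Kuiyangling mice, 59.5 and 37.1 CPM in mesalazine mice, 123 and 102 CPM in the DSS model and 14.8 and 31.3 CPM in controls. Both DSS model libraries were above 100 CPM and all others at 59.5 CPM or below, with both treated groups above both controls. The means were 38.8 ± 6.68 CPM with Kuiyangling, 48.3 ± 15.9 CPM with mesalazine, 113 ± 14.9 CPM in the DSS model and 23.1 ± 11.7 CPM in controls (SD, n = 2 each). The DSS model was 4.90-fold above control (log2 change 2.29, SE 0.40; adjusted p = 0.0603). Kuiyangling was at -1.54 against the DSS model (SE 0.39; adjusted p = 0.996) and at 0.75 against control (0.578). Mesalazine was at -1.23 against the DSS model (SE 0.38; 0.642) and at 1.07 against control (0.177).

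Over 16 alternatives the log2 change of Socs3 in the DSS model against control ran from 1.84 to 2.93, and its adjusted p from 5.51e-06 to 0.219. It passed under 6 of them, among these the fits without mesalazine 1 (0.0331) and without mesalazine 2 (0.0286), libraries of neither group compared. For Kuiyangling against the DSS model, where the range was 0.0281 to 1, it passed under 2: with only those 4 libraries (adjusted p = 0.0358) and without both libraries that stood apart (0.0281). In the mesalazine comparison it passed under 1 of 16, without both libraries that stood apart (log2 change -1.60, 0.0412, range 0.0412 to 1). The promoter of Socs3 is shown because it alone among the 9 genes with an entry held the STAT motif (TTCNNNGAA, reading the same on both strands, in 8.3% of all promoters), 154 bases before its start, in capitals.
Socs3, chr11:117969456-117969616, minus strand: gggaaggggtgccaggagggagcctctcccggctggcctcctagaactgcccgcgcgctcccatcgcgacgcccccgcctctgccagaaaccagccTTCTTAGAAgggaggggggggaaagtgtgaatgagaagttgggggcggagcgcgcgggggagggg

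Stat3 itself differed less. It had 132 and 118 CPM in Kuiyangling mice, 101 and 112 CPM in mesalazine mice, 197 and 142 CPM in the DSS model and 100 and 142 CPM in controls. DSS model 2, at 142.1 CPM, was just above control 2, at 141.8 CPM, while in FPKM it was below control 2 (30.3 and 31.4). Both treated groups were below both DSS model libraries. The log2 change was 0.49 for the DSS model against control (SE 0.29; adjusted p = 0.423), -0.44 for Kuiyangling against the DSS model (0.996) and -0.67 for mesalazine against the DSS model (0.857).

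With all 6 DSS-drinking mice set against the controls, 0 of 10 genes were called by edgeR, against 2.19% of all genes. An unadjusted p under 0.05 was found for 5, against 20.6% of all genes. DESeq2 called 2, of 965 genes in all, and limma 0. Il6ra came nearest at a log2 change of -2.34 (SE 0.54; adjusted p = 0.0556), then Socs3 at 1.37 (0.0690), Il11 at 2.41 (0.104), Il6 at 3.36 (0.120) and Osm at 2.03 (0.224). Without mesalazine 2, which left mesalazine 1 alone in its group, the log2 changes were -2.61 for Il6ra, 1.47 for Socs3 and 2.59 for Il11. The libraries did not overlap for 4 of the 10 genes (Il6, Il11 and Socs3 higher, Il6ra lower), where 25.5% of all genes did not overlap (14.3% higher and 11.3% lower). With both treatments set against the DSS model, edgeR called 0 of 10 genes and 0% of all genes. An unadjusted p under 0.05 was found for 4, against 5.74% of all genes. DESeq2 called 1 (Socs3), of 59 genes in all, and limma 0. Lif was at -1.43 and Socs3 at -1.38 (both 0.502), Osm at -2.15 (0.597) and Stat3 at -0.56 (0.860). All 5 genes that did not overlap were lower with treatment (Lif, Osm, Osmr, Socs3 and Stat3), where 15.3% of all genes did not overlap (7.53% higher and 7.76% lower).

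Kuiyangling and mesalazine mice were close in most of the 10 genes, with Il6st furthest apart relative to its error. In that comparison edgeR called 0, as it did 0% of all genes, 0 had an unadjusted p under 0.05, against 1.9% of all genes, and DESeq2 and limma called 0. The libraries did not overlap for 4 (3 higher and 1 lower with Kuiyangling), where 22.1% of all genes did not overlap (10.6% higher and 11.6% lower). Against control, 0 of 10 were called for Kuiyangling (0.239% of all genes, with 3 of 10 at an unadjusted p under 0.05, against 10.3% of all genes, and 0 by DESeq2 and limma). There 4 of 10 did not overlap, 3 higher and 1 lower with Kuiyangling, where 49.1% of all genes did not overlap (25.9% higher and 23.2% lower). For mesalazine against control the count was also 0 (0.673% of all genes). An unadjusted p under 0.05 was found for 4 of 10, against 20% of all genes. DESeq2 called 1 (Il11), of 982 genes in all, and limma 0. Here 7 of 10 did not overlap, 4 higher and 3 lower with mesalazine, where 45.7% of all genes did not overlap (23.6% higher and 22.1% lower). Osm, 1 of the 4, overlapped in FPKM (0.124 in mesalazine 1 and 0.131 in control 2). Without mesalazine 2, mesalazine 1 stood alone for its group, and the log2 changes there were 2.81 for Il11 and 1.37 for Socs3.

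Downstream of STAT3, 26 of 28 genes known as STAT3-responsive were tested. In the DSS model against control edgeR called 1 of them higher, where 0.194% of all genes were called higher: Steap4, a metalloreductase of inflamed and metabolic tissues. Of the 26 estimates, 21 were above 0 with a median log2 change of 0.93 (all genes -0.04). Steap4 had 31.1 and 28.1 CPM in Kuiyangling mice, 12.2 and 15.4 CPM in mesalazine mice, 33.0 and 22.6 CPM in the DSS model and 5.80 and 3.70 CPM in controls. All 6 DSS-drinking libraries were above both controls, and Kuiyangling mice overlapped the DSS model while mesalazine mice lay below it. Against control, Steap4 was higher in DSS model mice (log2 change 2.54, SE 0.34, adjusted p = 0.0180) and in Kuiyangling mice (2.63, SE 0.34, 0.0292), which also drank DSS. It was the 1 gene of the 26 called for Kuiyangling against control, where 0.187% of all genes were called higher. The first call was lost without DSS model 1 (0.0964), DSS model 2 (0.0558) or control 2 (0.167), and the second without Kuiyangling 1 (0.175), Kuiyangling 2 (0.0688) or control 2 (0.238). With limma the DSS model against control gave 2.32 (0.0537) on log2(FPKM + 0.1) and 1.84 (0.0990) on log2(FPKM + 1), and Kuiyangling against control 2.57 (0.0393) and 2.07 (0.0656), so that 1 of these 4 values passed.

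The antimicrobial lectin genes Reg3b and Reg3g and the acute-phase gene Saa3 were higher in mesalazine mice, which also drank DSS, than in controls. They were the 3 of 26 called in that comparison, where 0.433% of all genes were called higher. For mesalazine against the DSS model edgeR called 0 of the 26. Reg3b had 10218 and 4073 CPM in Kuiyangling mice, 46439 and 4461 CPM in mesalazine mice, 18187 and 14109 CPM in the DSS model and 428 and 162 CPM in controls. Saa3 had 105 and 43.7 CPM with Kuiyangling, 421 and 101 CPM with mesalazine, 83.7 and 128 CPM in the DSS model and 9.81 and 5.92 CPM in controls. Against control, mesalazine gave log2 changes of 6.43 for Reg3b (SE 1.12; adjusted p = 0.0414), 5.82 for Reg3g (SE 0.93; 0.0312) and 5.05 for Saa3 (SE 0.73; 0.0268). Mesalazine 1 was the highest library for these genes, and without it Reg3b was at 3.92 (0.105) and Saa3 at 3.68 (0.0902), neither called. Without control 2 the adjusted p was 0.295 for Reg3b and 0.221 for Saa3. Reg3g, at 8502 and 1177 CPM with mesalazine, was at 3.78 (0.0902) without mesalazine 1 and at an adjusted p of 0.268 without control 2. Leaving out DSS model 1 or 2 put Reg3b at 0.0677 and 0.0654 and Reg3g at 0.0522 and 0.0516, and Reg3b without control 1 was at 0.0510. Limma on log2(FPKM + 1) put Reg3b at 0.0814, Reg3g at 0.0728 and Saa3 at 0.0516, limma on log2(FPKM + 0.1) put Reg3b at 0.0623, and without both libraries that stood apart Reg3b was at 0.0723, Reg3g at 0.0511 and Saa3 at 0.0501. In the DSS model against control Reg3g was at a log2 change of 5.40 (0.0557) and Saa3 at 3.75 (0.0666).

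**Figure D4:**
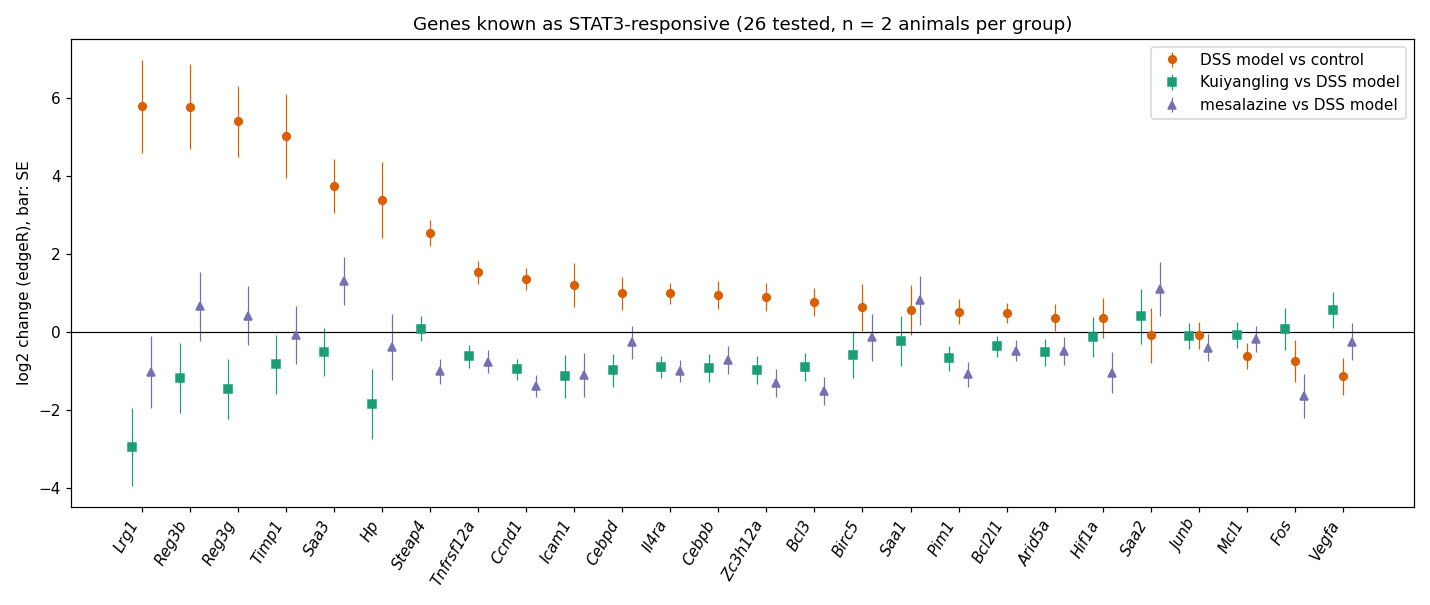
Log2 change of the 26 tested STAT3-responsive genes for the DSS model against control and for the treatments against the DSS model (edgeR, 2 animals per group). Steap4, at 2.54, is the one gene called in the DSS model against control, and 22 of 26 lie below 0 for Kuiyangling against the DSS model and 21 of 26 for mesalazine.

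With all 6 DSS-drinking mice set against control, 5 of the 26 rose, where 0.844% of all genes were called higher: Steap4 (log2 change 2.24), Saa3 (4.01), Reg3g (5.05), Reg3b (5.60) and Timp1 (4.71), a metalloproteinase inhibitor with 21 and 18 counts in Kuiyangling mice, 42 and 14 in mesalazine mice, 20 and 41 in the DSS model and 2 and 0 in controls. Without control 2 none of the 5 was called (adjusted p 0.146, 0.220, 0.232, 0.279 and 0.336 in that order). Without DSS model 2 Saa3 (0.0572), Reg3g (0.0572), Reg3b (0.0681) and Timp1 (0.109) were lost, and without DSS model 1 Reg3b (0.0574) and Timp1 (0.0691). Timp1 was also lost without Kuiyangling 1 (0.0907), Kuiyangling 2 (0.0729), mesalazine 1 (0.0621), control 1 (0.0641) or both libraries that stood apart (0.143), and with limma on log2(FPKM + 1) (0.0738).

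Against the DSS model, 22 of 26 STAT3-responsive genes had estimates below 0 with Kuiyangling (median log2 change -0.65, all genes 0.00). With mesalazine 21 of 26 did (-0.48, all genes 0.04). edgeR called 0 of the 26 and 0% of all genes in each. Both comparisons share the DSS model libraries with the DSS model against control, so the 3 are not independent. At an unadjusted p under 0.05 there were 7 with Kuiyangling, against 3.56% of all genes, and 8 with mesalazine, against 5.49% of all genes. DESeq2 called 0 of the 26 with Kuiyangling, of 13 genes in all, and 2 with mesalazine (Bcl3 and Ccnd1), of 91 in all, and limma called 0. Ccnd1, the cell-cycle gene for cyclin D1, had 94.7 and 99.2 CPM with Kuiyangling, 74.3 and 70.9 CPM with mesalazine, 227 and 149 CPM in the DSS model and 72.4 and 73.6 CPM in controls. Both DSS model libraries stood apart from all others, with a log2 change of 1.36 for the DSS model against control (adjusted p = 0.0987) and -1.16 for both treatments against the DSS model (0.290). Lrg1, a secreted acute-phase glycoprotein gene, had 6.00 and 6.39 CPM with Kuiyangling, 44.0 and 3.09 CPM with mesalazine, 76.1 and 19.1 CPM in the DSS model and 1.19 and 0.493 CPM in controls. It was at 5.78 for the DSS model against control (0.0987) and -2.94 for Kuiyangling against the DSS model (0.996). Bcl3, an IkB-family regulator, was at -1.21 and Il4ra, the IL-4 receptor chain, at -0.94 for both treatments against the DSS model (0.502 each).

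Among the other STAT3-activating cytokines and receptors, 9 of 15 were tested and 0 were called by edgeR in any of the 8 comparisons. In the DSS model against control, where edgeR called 0.247% of all genes, 4 of the 9 had an unadjusted p under 0.05, against 14.8% of all genes. DESeq2 called 2 of them (Csf3 and Csf3r), of 435 genes in all, and limma on log2(FPKM + 1) called 1 (Csf3r), of 19 in all. Csf3r, the G-CSF receptor gene, also a neutrophil marker, came nearest, with 0.619 and 0.260 CPM in Kuiyangling mice, 0.283 and 0.584 CPM in mesalazine mice, 3.02 and 3.12 CPM in the DSS model and 0.149 and 0.370 CPM in controls. The DSS model libraries were apart from all others (log2 change 3.56 against control, adjusted p = 0.0947; -2.80 for Kuiyangling, 0.996, and -2.78 for mesalazine, 0.504, against the DSS model). Csf3, its ligand, had 8 and 2 counts in Kuiyangling mice, 33 and 7 in mesalazine mice, 10 and 24 in the DSS model and 0 in both controls. The pooled DSS model counts were 13.3-fold above a floor of 3 counts over the control group, a value that leaves out the spread between animals. For the DSS model against control, edgeR gave Csf3 a log2 change of 7.22 (SE 1.83; adjusted p = 0.154). Il22, an epithelial STAT3 activator, had 0 or 1 count per library and was not tested.

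Of the 11 other IL-6 family ligands and receptors, 6 were tested, 0 were called by edgeR in any comparison, and all 6 estimates were below 0 in the DSS model against control, with 0 at an unadjusted p under 0.05 and 0 by DESeq2 or limma. Il27ra was at -1.62 (adjusted p = 0.346) there, and at -0.29 (0.910) without control 2, and Ctf1, the cardiotrophin-1 gene, was at -0.79 (0.459). All 16 genes of the JAK-STAT core and its brakes were tested and 0 were called in any comparison, and in the DSS model against control 13 of 16 estimates were below 0, with 0 at an unadjusted p under 0.05 and 0 by DESeq2 or limma. Socs1, a second inhibitor of JAK kinases, had 7.55 and 4.41 CPM in Kuiyangling mice, 8.35 and 6.60 CPM in mesalazine mice, 27.4 and 37.6 CPM in the DSS model and 5.004 and 40.7 CPM in controls, and control 2 was the highest library. For both treatments against the DSS model Socs1 was at -2.28 (adjusted p = 0.517) and Socs2, a brake on growth hormone signalling, at 0.74 (0.585), and DESeq2 called Socs1 there. For the 7 other comparisons, genes at an unadjusted p under 0.05 follow for the IL-6 family (of 6), STAT3-activating (of 9) and JAK-STAT (of 16) lists. Against the DSS model there were 1, 1 and 1 with Kuiyangling (3.56% of all genes), 0, 1 and 4 with mesalazine (5.49%) and 0, 1 and 3 with both (5.74%). Against control there were 2, 2 and 2 with Kuiyangling (10.3%), 1, 2 and 1 with mesalazine (20%) and 2, 3 and 2 with all 3 DSS groups (20.6%). Kuiyangling against mesalazine had 0 in each list (1.9%). In those 7 comparisons the genes DESeq2 called included Csf3r (both treatments against the DSS model) and Csf3 (mesalazine and all 3 DSS groups, against control), and limma on log2(FPKM + 1) Ctf1 (all 3 DSS groups against control).

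Across the 8 libraries, the log2 CPM of Il6 and Il11 had a Pearson correlation of 0.92, those of Lif and Stat3 one of 0.88, and those of Socs3 and Il6ra one of -0.91. These describe 8 libraries that share groups and depth, and carry no test. With 10202 genes compared, each averaging 5 CPM or more, Osm was most like Elavl1 (0.970), Crem (0.944), Lurap1l (0.927), Gpr160 (0.921) and Metrnl (0.921). Il11 was most like Noc4l (0.984), Timp3 (0.960), Minpp1 (0.952), Gpn1 (0.951) and Chmp3 (0.949). For Socs3, with 10201 genes compared, the genes most like it included Pgs1 (0.982), Slc22a18 (0.975), Clic1 (0.972) and 2210016F16Rik (0.970).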

How the data were processed

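The authors deposited whole-number read counts per gene and FPKM for 8 libraries, 1 per animal. Per the labels' protocols the libraries came from a stranded mRNA kit. The submitters' processing notes name Trimmomatic and HISAT2, while the read counter, strand setting, annotation and genome build are not given in the sources used here. The deposited FPKM equal the counts over 1 length per gene and the table's totals in 17353 of 17353 genes, within a relative tolerance of 1e-06. One mesalazine column was spelled unlike its label and was taken as replicate 2 by its number.

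The 10 genes, the 4 pathway lists (70 genes), the 9 marker lists and the tests were chosen with earlier results of these data known. Quasi-likelihood F tests of edgeR 4.0.16 (R 4.3.3) were run on TMM-scaled counts of the 13381 genes that passed filterByExpr, fitting the 4 group means to the 8 libraries at once. P-values were adjusted by Benjamini-Hochberg over all tested genes, and a gene was called under 0.05 with no fold limit. SE is the log2 change over the root of F, and log2 CPM took a prior count of 2. Alternatives were DESeq2 1.42.0, limma 3.58.1 on log2(FPKM + 0.1) and log2(FPKM + 1), RLE factors, no filter, only the compared libraries, a replicate block and each library left out. The fit without mesalazine 1 and control 2 was chosen after seeing the data, as were the counts of STAT3-responsive genes as a result. The edgeR steps were tested on simulated counts. Named genes were all 10, every called list gene, otherwise up to 3 per list with the smallest p, and the 5 genes most like Osm, Il11 and Socs3, and some of these are not reported here. Promoters came from RefSeq, GRCm38.p6, whose coordinates are not those of the authors' processing.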

Additional observations from a re-analysis of the deposited data

How the results depend on the processing

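Of the 10 genes, edgeR called 0 in every comparison, and the counts under other settings were as follows. The genes called in all under most of these settings are given with the next list. For the DSS model against control they were 33 in the fit reported, 435 with DESeq2 and 487 without a filter. For Kuiyangling against the DSS model they were 0, and 21 with only its 4 libraries. In the DSS model against control DESeq2 called 2 (Il11, Socs3), limma on log2(FPKM + 0.1) 1 (Socs3), edgeR without a count filter 3 (Il6, Il11, Socs3), and edgeR without both libraries that stood apart 2 (Osmr, Socs3), with 0 to 1 when single libraries were left out. Kuiyangling against the DSS model gave 1 (Socs3) with only its 4 libraries and 1 without both libraries that stood apart, and mesalazine against the DSS model 1 (Socs3) without both. Mesalazine against control gave 1 with DESeq2, 1 without a filter (Il11 each) and 0 to 2 with single libraries left out. All 3 DSS groups against control gave 2 with DESeq2, 3 without a filter, 1 without both libraries and 0 to 3 with single libraries left out. Both treatments against the DSS model gave 1 with DESeq2, 2 without a filter and 2 without both libraries (Lif, Socs3).

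The counts of STAT3-responsive genes called are given out of all genes called under the same setting. In the DSS model against control, 1 of 33 in the fit reported became 9 of 435 with DESeq2, 11 of 487 without a filter, 0 of 19 with limma on log2(FPKM + 1), 5 of 44 with only the compared libraries, 5 of 50 with the replicate block and 9 of 194 without both libraries that stood apart. With single libraries left out it was 0 to 7 (all genes, 1 to 159). On log2(FPKM + 0.1) limma called 1 of 33, Reg3g and not Steap4. For Kuiyangling against control, 1 of 32 became 5 of 349, 8 of 451 and 0 of 7 in the first 3 of these, 4 of 65 with the block, 6 of 85 without both, and 0 to 4 (all genes, 1 to 171). For mesalazine against control, 3 of 90 became 9 of 982, 11 of 1090 and 0 of 11, then 6 of 315 with only the compared libraries, 0 of 23 without both, and 0 to 11 (all genes, 1 to 2717). All 3 DSS groups, 5 of 293, gave 9 of 965 with DESeq2, 12 of 1169 without a filter, and 0 to 10 (all genes, 3 to 2249). Mesalazine against the DSS model, 0 of 0, gave 2 of 91 and 2 of 104, and both treatments, 0 of 0, gave 1 of 59, 2 of 104 and, without both libraries, 4 of 206. The cause was not tested.

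The 73 single-gene changes followed here were picked from those named in the text and do not cover every gene and comparison. Il6st for both treatments against the DSS model (log2 change -0.01), for example, was not among them. Over these changes and 1152 alternative values, 70 of the changes kept their direction throughout. The exceptions were Il11 without DSS model 2, at 0.40 for Kuiyangling and 0.69 for mesalazine against the DSS model (ranges of -1.68 to 0.40 and -1.55 to 0.69 with single libraries left out), and Il11ra1 in the DSS model against control, at 0.09 without DSS model 1, 0.27 without control 2 (range -0.33 to 0.27) and 0.25 without both libraries that stood apart. A change not called in the fit reported passed in 68 of the values, and a called one missed in 44. Over all tested genes, the deviations of same-numbered animals from their group means had correlations of -0.311 to 0.162 between groups. Such values cannot exclude a link between same-numbered animals that touches few genes, and no label names a batch. The replicate block moved the counts of STAT3-responsive genes given above and called 0 of the 10 genes.

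With 2 animals per group and 0 to 36 counts per library of Il6, Osm and Il6ra, differences in these genes rest on few reads, and a missed threshold does not show that groups are alike.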

Other observations

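Pgs1, a phosphatidylglycerophosphate synthase gene of mitochondrial lipid synthesis, is the next coding gene to Socs3 on one side (RefSeq, GRCm38.p6, mouse chromosome 11) and was also among the 5 genes most like it across the 8 libraries, with a Pearson correlation of 0.982. Pgs1 had 60.9 and 47.7 CPM in Kuiyangling mice, 72.8 and 53.8 CPM in mesalazine mice, 90.3 and 79.6 CPM in the DSS model and 36.4 and 49.6 CPM in controls. Both DSS model libraries were above all others, as with Socs3. The log2 change was 0.98 for the DSS model against control (SE 0.29; edgeR adjusted p = 0.187), smaller than the 2.29 of Socs3. Reads shared between these neighbours could not be looked at in a count table, and their part was not tested.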
